A study of Mus musculus with 3 samples.

Results

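The genes of MHC class II antigen presentation were followed through the single-cell RNA-Seq libraries of naive and transplanted mouse left lungs. The group held 10 genes, matched by symbol among 32285 genes, and was chosen by function and not by its values: H2-Aa, H2-Ab1, H2-Eb1, H2-DMa, H2-DMb1, H2-DMb2, H2-Oa, H2-Ob, Cd74 and Ciita. The labels give C57BL/6J as the strain of every sample, but the CD45.1 recipients were of the congenic line that the mouse list of the study names B6.SJL-Ptprca Pepcb/BoyJ, so strain differed between sorted recipient cells and the naive library. Mice were 8 to 10 weeks old, and each of the 3 libraries pooled cells of 2 mice. Left lungs of mice without surgery gave the naive library. In the other libraries a CD45.2 left lung, kept for 60 minutes at 4°C and 45 minutes at 28°C, was placed in a CD45.1 recipient and reperfused for 2 hours or 3 days. Recipient cells were sorted by CD45.1, but lung structural cells were found beside them, with an endothelial-like cluster of 28 cells at 2 hours and one of 126 cells at 3 days whose top genes included Sftpc. Cells of the donor graft were thus not all kept out, and donor and recipient leukocytes were not told apart here. Since the labels describe 1 staining and sort for all samples, the sources used here do not say which cells were gated in the naive library. No transgene or gene deletion was used.

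MHC class II molecules are pairs of an alpha and a beta chain that carry peptides of endocytosed proteins to the cell surface, where CD4+ T cells read them. H2-Aa and H2-Ab1 encode the chains of I-A, and H2-Eb1 encodes the beta chain of I-E; C57BL/6 mice do not make the I-E alpha chain, so their I-E beta chain has no partner at the surface. Cd74 encodes the invariant chain, which fills the groove of new class II molecules and guides them to endosomes. H2-DM, made of H2-DMa with either H2-DMb1 or H2-DMb2, takes out the remnant of the invariant chain and helps peptide loading, and H2-DO, made of H2-Oa and H2-Ob, holds H2-DM back. Ciita encodes the coactivator that these promoters depend on. In the lung, B cells and dendritic cells carry class II at all times, whereas monocytes and macrophages carry it to a degree that varies with their type and state.

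Most of these genes share 1 stretch of chromosome 17. On GRCm38 with GENCODE vM21, the order along the chromosome was H2-Oa (ENSMUSG00000024334) at chr17:34092340-34095234, H2-DMa (ENSMUSG00000037649) at chr17:34119541-34139101, H2-DMb2 (ENSMUSG00000037548) at chr17:34143307-34151555, H2-DMb1 (ENSMUSG00000079547) at chr17:34153072-34160230, H2-Ob (ENSMUSG00000041538) at chr17:34238903-34254414, H2-Ab1 (ENSMUSG00000073421) at chr17:34257689-34269419, H2-Aa (ENSMUSG00000036594) at chr17:34282744-34287823 on the minus strand, and H2-Eb1 (ENSMUSG00000060586) at chr17:34305867-34316674. Ciita (ENSMUSG00000022504) lies at chr16:10480059-10528418, and apart from H2-Aa all of these lie on the plus strand. H2-DMb1 and H2-DMb2 are neighbouring near-copies: 22.7% of the 50-base stretches of H2-DMb1 transcripts also occur in those of H2-DMb2, so the split of reads between the pair is uncertain.

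Class II promoters carry an X box, bound by the RFX complex that CIITA docks on, and downstream of it a Y box, bound by NF-Y. Because the group is held together by these elements, the 250 bases upstream of each start were searched in the RefSeq promoter table of GRCm38, where 7 members had an entry (H2-Ab1 and Ciita had none, and Cd74 was not searched). The Y box was taken as GATTGG and the core of the X box as GNAAC with 15 to 45 bases to the Y box, both on the strand of the gene. 5 members held the arrangement, against 0.761% of 32851 promoters, and GATTGG on either strand occurred in 14.6% of them. The X core stood 24 to 27 bases before the Y box, and the Y box began 44 to 62 bases before the start. The stretches are given 5′ to 3′ on the strand of the gene, with X core and Y box in capitals. Only 30 bases are shown for H2-DMb1, around the X core, and for H2-DMb2, at the same distance from its Y box. The ratio of this pair set B cells apart from monocytes, macrophages and dendritic cells. Starts here are those of RefSeq and differ from the GENCODE starts above. By GENCODE, the stretches of H2-DMb1 and H2-DMb2 lie inside the genes, and that of H2-Oa reaches past the gene's start:
H2-Aa (chr17:34287862-34287909, minus strand): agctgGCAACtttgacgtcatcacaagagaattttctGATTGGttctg
H2-Eb1 (chr17:34305771-34305817, plus strand): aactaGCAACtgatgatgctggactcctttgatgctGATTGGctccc
H2-Oa (chr17:34092298-34092345, plus strand): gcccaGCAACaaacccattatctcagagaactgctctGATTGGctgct
H2-Ob (chr17:34238813-34238857, plus strand): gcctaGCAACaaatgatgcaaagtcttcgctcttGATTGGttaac
H2-DMb1 (chr17:34153092-34153121, plus strand): acctaGTAACtgatgatgctaggctgattc
H2-DMb2 (chr17:34145121-34145150, plus strand): acctattaaccgatgatgctaggctaagtc

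H2-DMb2 has GATTGG 91 bases before its start, but no GNAAC at that distance from it. Counted from 1 at the 5′ end, the stretches of H2-DMb1 and H2-DMb2 differ by G6T, T11C, G26A and T28G, with the base of H2-DMb1 first and that of H2-DMb2 last, the first of which lies in the X core. Neither listed start of H2-DMa showed the arrangement. A match or its absence is a description of letters in this window and says nothing of binding.

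The naive, 2-hour and 3-day libraries held 2921, 10328 and 9016 cells with 28538529, 10749100 and 70750470 unique molecular identifiers (UMIs), and the filters of the study kept 2422, 10283 and 8324 cells. The 2-hour library stood apart by its depth, with a median of 878 UMIs per cell against 7298 and 5716. Counting was done with Cell Ranger 7.1.0 in the naive and 6.0.0 in both transplant libraries, by their headers, and the kit is unclear, since the labels name 5′ and 3′ chemistry together and the methods 3′ chemistry alone. With 1 library per condition, a difference between libraries cannot be told apart from one in mice, strain, sort, chemistry or depth or, against the naive library, in counting software. Libraries shared 1 to 23 barcodes in pairs. Clusters were called B-like, monocyte-like and so on from marker genes without any class II gene, and are named by the cell type alone from here on. Dendritic cells were picked cell by cell with at least 3 markers of 1 dendritic list, since they formed a cluster only at 3 days, mixed there with plasmacytoid dendritic cells. B cells numbered 561, 1709 and 1946, monocytes 152, 702 and 1250, dendritic cells 13, 5 and 55, and plasmacytoid dendritic cells 6, 20 and 25 in the naive, 2-hour and 3-day libraries. Macrophages numbered 101 in the naive library and 793 at 3 days, and no cluster of the 2-hour library carried their name. The 9 B cell markers summed to between 4522 and 10182 UMIs per 1000000 (CPM) in B cells and to at most 393 CPM in the other lineages.

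Class II transcripts were concentrated in dendritic cells and B cells in every library. The UMIs of H2-Aa, H2-Ab1 and H2-Eb1 were summed over the cells of a lineage and divided by all their UMIs, and this class II chain sum is given in CPM with an exact Poisson interval that covers counting error only. In dendritic cells it was 16299 (95% interval 15711 to 16903) CPM in naive lungs, 26393 (95% interval 23879 to 29100.3) at 2 hours and 27029.8 (95% interval 26700.4 to 27362) at 3 days. In B cells it was 9293 (95% interval 9194 to 9392) CPM in naive lungs, 9772 (95% interval 9621 to 9925) at 2 hours and 11063 (95% interval 11002 to 11125) at 3 days. Dendritic cells were above B cells, and B cells above the remaining lineages, in all 3 libraries without overlap of the intervals. B cells exceeded monocytes by 5.82-fold (95% interval 5.61 to 6.04) in the naive library, 4.88-fold (95% interval 4.67 to 5.10) at 2 hours and 9.90-fold (95% interval 9.75 to 10.1) at 3 days.

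Plasmacytoid dendritic cells, which sense nucleic acids and make type I interferon, came next in each library, with 2899 (95% interval 2546 to 3287) CPM in naive lungs, 3512 (95% interval 2977 to 4115) at 2 hours and 4053 (95% interval 3852 to 4261) at 3 days. Monocytes followed with 1598 (95% interval 1542 to 1655) CPM in naive lungs, 2003 (95% interval 1921 to 2088) at 2 hours and 1117 (95% interval 1101 to 1133) at 3 days. Macrophages stood at 742 (95% interval 704 to 781) CPM in the naive library, below monocytes, and at 3731 (95% interval 3692 to 3771) CPM at 3 days, above them. At 3 days the intervals of plasmacytoid dendritic cells and macrophages did not overlap, at 3852 and 3771 CPM at their nearest ends. The order from dendritic cells down to monocytes was otherwise the same in the 3 libraries.

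T cells, NK cells and neutrophils of the mouse are not known for class II, and their values are given as the background. In T cells the chain sum was 70.04 CPM in naive lungs, 342 at 2 hours and 328 at 3 days, in NK cells 83.1, 209.8 and 607 CPM, and in neutrophils 104, 116 and 442 CPM in the naive, 2-hour and 3-day libraries. By value it was lowest in the naive library in all 3 lineages. At 2 hours a T cell cluster of 253 cells led by Bc1, with Scgb1a1, the secretory protein of club cells, among its top genes, stood at 2097 CPM and held 700.3 CPM of B cell markers, whereas the largest T cell cluster stood at 31.7 CPM. Beside these values, naive macrophages at 742 CPM and monocytes at 1598 CPM in naive lungs, 2003 at 2 hours and 1117 at 3 days were above the T cells of the same library by at least 3.41-fold. At 3 days NK cells at 607 CPM and neutrophils at 442 CPM lay closer to monocytes than T cells at 328 CPM did.

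**Figure D1:**
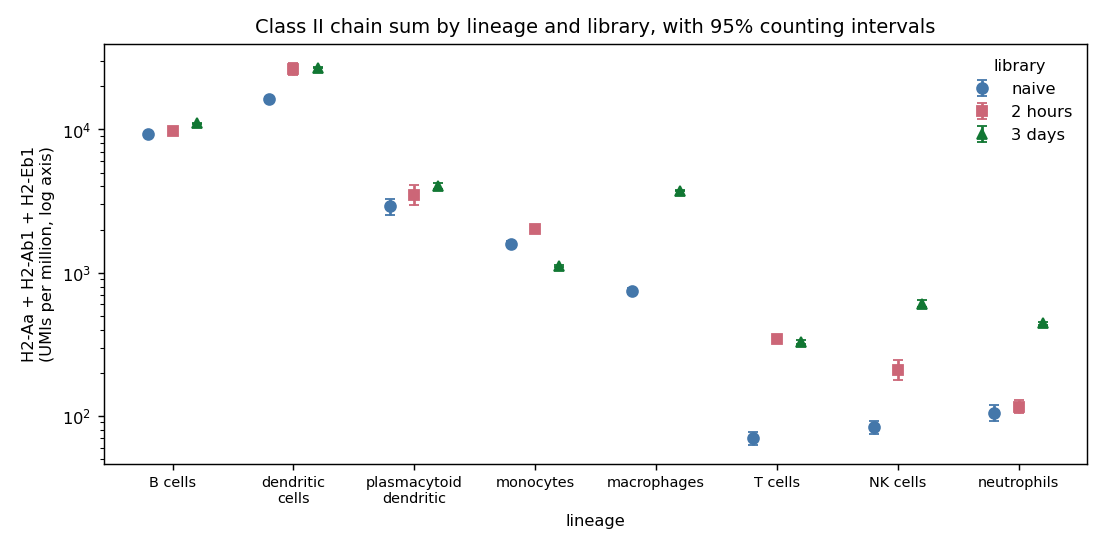
The class II chain sum (H2-Aa, H2-Ab1 and H2-Eb1, UMIs per 1000000 on a log axis) for each lineage on the x axis, 1 point per library with its 95% counting interval. Dendritic cells and B cells lie highest in each library, monocytes are lower at 3 days (1117 CPM) than in the other libraries, and macrophages are higher at 3 days (3731 CPM) than in the naive library (742 CPM).

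Most chain UMIs lay in B cells in every library. B cells were 23.2%, 16.6% and 23.4% of kept cells and held 79.04%, 77.2% and 53.5% of the chain UMIs of all kept cells in the naive, 2-hour and 3-day libraries. Macrophages held 3.39% in the naive library and 14.96% at 3 days. Dendritic cells held 6.74%, 1.95% and 11.04% from 0.537%, 0.0486% and 0.661% of the cells. The sort and the upper limit of 25000 UMIs per cell can set such shares. At 3 days that limit left out 190 cells, 38 of them dendritic cells by the same markers, which held 19.8% of the chain UMIs of all cells in the library at 9669 CPM.

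Nearly every B cell carried class II transcripts. A UMI of the chains was found in 98.2%, 95.4% and 98.9% of B cells in the naive, 2-hour and 3-day libraries, against 22.97%, 5.72% and 61.8% of T cells, whose median depths were 10188, 1130 and 8283 UMIs beside 6210, 764 and 5044 in B cells. With each cell thinned to 500 UMIs, the shares were 90.9%, 94.1% and 95.9% of B cells and 2.03%, 4.02% and 8.98% of T cells. Thinning left out 0, 76 and 0 B cells and 0, 20 and 0 T cells that had fewer. In thinned monocytes the shares were 14.5%, 15.4% and 17.3%, 12 of the 2-hour cells being left out.

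The accessory genes split the antigen-presenting lineages apart. By value, H2-DMb2 and both chains of H2-DO were highest in B cells in every library, whereas H2-DMb1 was highest in dendritic cells. At 2 hours few dendritic UMIs left this order unsettled. The fold of B cells to dendritic cells there had 95% intervals of 0.451 to 13.6 for H2-Oa, 0.897 to 26.9 for H2-Ob and 0.149 to 1.44 for H2-DMb1. H2-DMb2 in B cells was 467 (95% interval 445 to 489) CPM in naive lungs, 424 (95% interval 393 to 457) at 2 hours and 510.2 (95% interval 497 to 524) at 3 days, against 3.09, 4.45 and 7.67 CPM in monocytes. In dendritic cells it was 44.9 (95% interval 19.4 to 88.5) CPM in the naive library and 170.3 (95% interval 145 to 199) CPM at 3 days, and 0 UMIs among 15269 at 2 hours, which allows up to 196 CPM at 3 counts. H2-DMb1 showed the reverse order, with 674 (95% interval 559 to 806) CPM in naive dendritic cells and 807 (95% interval 751 to 867) CPM at 3 days against 165 (95% interval 153 to 179) and 141 (95% interval 134 to 148) CPM in B cells.

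Counted against each other, H2-DMb2 had 2.82 (95% interval 2.57 to 3.10) UMIs per UMI of H2-DMb1 in naive B cells, 4.17 (95% interval 3.51 to 4.97) at 2 hours and 3.63 (95% interval 3.43 to 3.84) at 3 days. In monocytes the same ratio was 0.0366, 0.0581 and 0.0793, in macrophages 0.0789 in the naive library and 0.115 at 3 days, and in dendritic cells 0.0667 and 0.211 in those libraries. B cells thus lay above 1 and monocytes below it in every library. Macrophages and dendritic cells lay below it in the naive and 3-day libraries. In 2-hour dendritic cells the ratio rested on 0 and 4 UMIs, with an upper 95% bound of 1.51. T cells, from low counts, were above 1 as well, at 1.09, 5.4 and 1.86 in the naive, 2-hour and 3-day libraries. NK cells were at 0.464, 1.5 and 2.34 and neutrophils at 1.17, 3.8 and 0.985, also from low counts. A ratio of UMIs between genes is not corrected for length and is read here only across lineages and libraries. H2-DMa, the alpha chain that pairs with either product, was 282 (95% interval 265 to 299.5) CPM in naive lungs, 232 (95% interval 209.6 to 257) at 2 hours and 397 (95% interval 385 to 409) at 3 days in B cells. Dendritic cells had 562, 589 and 700.2 CPM of it.

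H2-Ob, the beta chain of H2-DO, was 477 (95% interval 454 to 499) CPM in naive lungs, 426 (95% interval 395 to 459) at 2 hours and 475 (95% interval 462 to 488) at 3 days in B cells. It was 61.8 CPM in naive dendritic cells and 93.6 CPM at 3 days, and at most 20.5 CPM in monocytes and macrophages, below the 23.03, 28.1 and 29.1 CPM of T cells. H2-Oa, its alpha chain, was 155 (95% interval 142 to 168) CPM in naive lungs, 215 (95% interval 193 to 239) at 2 hours and 191 (95% interval 183 to 199) at 3 days in B cells and at most 7.12 CPM in monocytes and macrophages. In dendritic cells H2-Oa was 22.5 (95% interval 6.12 to 57.5) CPM in the naive library and 115 (95% interval 94.1 to 138) CPM at 3 days. The UMIs of H2-DO per UMI of H2-DM came to 0.691 (95% interval 0.655 to 0.729), 0.846 (95% interval 0.778 to 0.919) and 0.635 (95% interval 0.617 to 0.654) in B cells, and to 0.0658 (95% interval 0.0362 to 0.111) in naive dendritic cells and 0.124 (95% interval 0.106 to 0.144) at 3 days. In monocytes it was 0.0442, 0.113 and 0.0526 and in macrophages 0.0125 and 0.0819. The ratio was thus higher in B cells than in any myeloid lineage of the same library; in 2-hour dendritic cells it was 0.308 (95% interval 0.0731 to 0.996). T cells, at 1.44 (95% interval 1.13 to 1.83), 1.36 (95% interval 1.06 to 1.75) and 0.943 (95% interval 0.814 to 1.09), had a higher ratio than B cells from low counts. In naive T cells H2-Ob stood at 23.03 CPM beside 28.6 CPM of H2-Aa, whereas in naive B cells it was 477 beside 3793 CPM, so the genes did not keep the ratio they had in B cells.

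Cd74 (ENSMUSG00000024610) lies apart from the others, on the plus strand of chromosome 18 at 60803848 to 60812652. This invariant chain gene stood at 14310.5 (95% interval 13760.2 to 14877) CPM in naive lungs, 34579.9 (95% interval 31693 to 37659) at 2 hours and 16021 (95% interval 15768 to 16278) at 3 days in dendritic cells. Its level in B cells was 9155 (95% interval 9057 to 9253) CPM in naive lungs, 18071 (95% interval 17866 to 18279) at 2 hours and 8819 (95% interval 8764 to 8874) at 3 days. In monocytes it was 2028 CPM in naive lungs, 3564 at 2 hours and 1171 at 3 days, and in macrophages 819.6 CPM in the naive library and 2266 CPM at 3 days. T cells held 68.5, 551 and 205 CPM. Ciita, the coactivator, was low throughout. It was 74.3 (95% interval 65.7 to 83.6) CPM in naive lungs, 64.4 (95% interval 52.7 to 77.9) at 2 hours and 102 (95% interval 96.5 to 108) at 3 days in B cells, and 107 (95% interval 64.2 to 167) CPM in naive and 166 (95% interval 141 to 194) CPM in 3-day dendritic cells, with 0 UMIs in those at 2 hours, which allows up to 196 CPM at 3 counts. In monocytes it was 9.78 (95% interval 5.89 to 15.3) CPM in naive lungs, 7.12 (95% interval 3.07 to 14.03) at 2 hours and 19.1 (95% interval 17.1 to 21.3) at 3 days, and in macrophages 7.12 CPM in the naive library and 11.2 CPM at 3 days, while T cells, NK cells and neutrophils had at most 7.22 CPM.

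**Figure D2:**
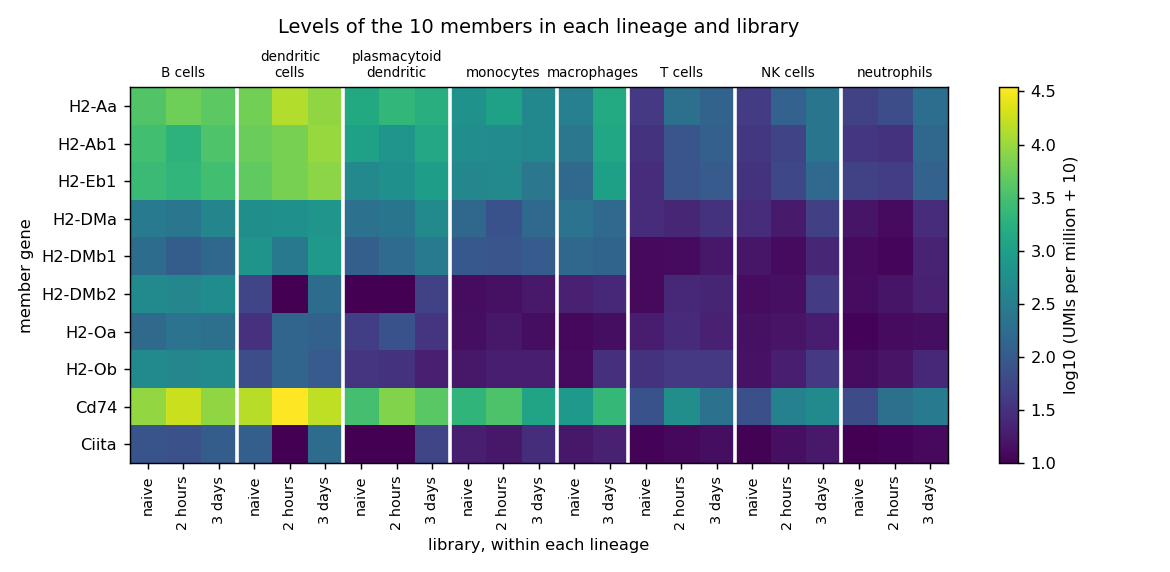
Each row is a member gene and each column a lineage in 1 library, and the colour gives log10 of UMIs per 1000000 plus 10. H2-DMb2, H2-Oa and H2-Ob stand out in the B cell columns, H2-DMb1 in the dendritic columns, and the T cell, NK cell and neutrophil columns are dark for the 3 chains and Cd74.

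In B cells the chain sum differed little between libraries, but its genes did not move together. The log2 ratio of the chain sum was 0.07 (95% interval 0.05 to 0.10) from naive to 2 hours and 0.18 (95% interval 0.16 to 0.20) from 2 hours to 3 days. H2-Aa was 3793 CPM in naive lungs, 5699.8 at 2 hours and 4432 at 3 days, so it was highest at 2 hours. H2-Ab1 was 2963 CPM in naive lungs, 1958 at 2 hours and 3687 at 3 days, and H2-Eb1 was 2537 CPM in naive lungs, 2114 at 2 hours and 2944 at 3 days, so both beta chains were lowest at 2 hours. For 2 hours to naive, the log2 ratios were 0.59 (95% interval 0.55 to 0.63) for H2-Aa, 0.98 (95% interval 0.96 to 1.004) for Cd74, -0.60 (95% interval -0.65 to -0.54) for H2-Ab1 and -0.26 (95% interval -0.32 to -0.21) for H2-Eb1. From 2 hours to 3 days each of these directions turned, with -0.36 (95% interval -0.40 to -0.33), -1.04 (95% interval -1.05 to -1.02), 0.91 (95% interval 0.86 to 0.97) and 0.48 (95% interval 0.43 to 0.53) in the same order.

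A gene was counted as past 2-fold where its log2 ratio of CPM plus 10 exceeded 1 in either direction, among genes with at least 50 UMIs over both libraries. Of the 10 members, 0 were past 2-fold in B cells from naive to 2 hours, where 26.4% of all 8269 genes were. From naive to 3 days it was 0 of 10, beside 13.2% of genes, and from 2 hours to 3 days 1 of 10, Cd74, which was lower at 3 days, beside 7.03%. The median over the members was -0.17, 0.22 and 0.35 for 2 hours to naive, 3 days to naive and 3 days to 2 hours, beside -0.30, -0.02 and 0.19 over all genes tested.

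The naive and 3-day libraries were of like depth but were counted with different versions of Cell Ranger. Between them the chains of B cells differed in the same direction, with 0.22 (95% interval 0.20 to 0.25) for H2-Aa, 0.32 (95% interval 0.29 to 0.35) for H2-Ab1 and 0.21 (95% interval 0.18 to 0.25) for H2-Eb1, all higher at 3 days. H2-DMa had 0.49 (95% interval 0.40 to 0.59) and Ciita 0.46 (95% interval 0.27 to 0.66). H2-Oa had 0.30 (95% interval 0.17 to 0.44), while H2-Ob, its partner, had -0.004 (95% interval -0.08 to 0.07). H2-DMb1 had -0.23 (95% interval -0.37 to -0.10) and H2-DMb2 0.13 (95% interval 0.05 to 0.21), and Cd74 had -0.05 (95% interval -0.07 to -0.04). The directions of H2-DMb1 and Cd74 turned under some of the alternative settings given below. All these differences were under 2-fold, and their intervals cover counting error but not the spread between mice.

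**Figure D3:**
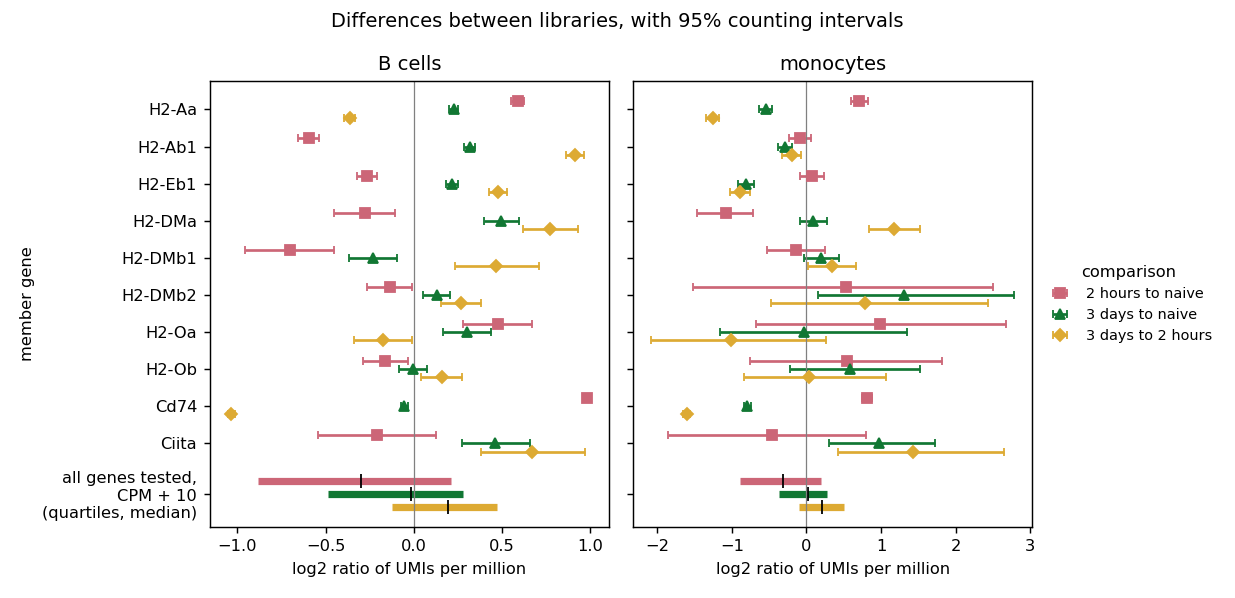
Log2 ratios of UMIs per 1000000 between libraries for each member in B cells and monocytes, with 95% counting intervals; bars at the bottom give the quartiles and the tick the median of all genes tested, on CPM plus 10. H2-Aa and Cd74 lie to the right and H2-Ab1 to the left of 0 for 2 hours to naive in B cells (0.59, 0.98 and -0.60).

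The split between the I-A chains at 2 hours was not particular to B cells. B cells held 2.91 (95% interval 2.80 to 3.03) UMIs of H2-Aa per UMI of H2-Ab1 at 2 hours, against 1.28 (95% interval 1.25 to 1.31) in the naive library and 1.20 (95% interval 1.19 to 1.22) at 3 days. In dendritic cells the ratio was 2.05 (95% interval 1.61 to 2.63) at 2 hours against 1.10 and 0.905, in plasmacytoid dendritic cells 3.23 (95% interval 2.13 to 5.05) against 1.36 and 1.26, and in monocytes 2.13 (95% interval 1.93 to 2.36) against 1.23 and 1.02. T cells, NK cells and neutrophils, with their low class II counts, showed 2.48, 2.69 and 2.61 at 2 hours against 1.24, 1.20 and 1.51 in the naive library. Cd74 per UMI of H2-Ab1 followed, at 9.23 in 2-hour B cells against 3.09 and 2.39, and at 7.19 in monocytes against 3.86 and 2.71. By value the shift appeared in all 7 lineages with 2-hour cells. T cells, NK cells and neutrophils were read as background above. Their ratios are not separate evidence, since RNA of other cells can give them. Depth moved with the shift, as given above, and the part of depth and chemistry in it was not tested.

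**Figure D4:**
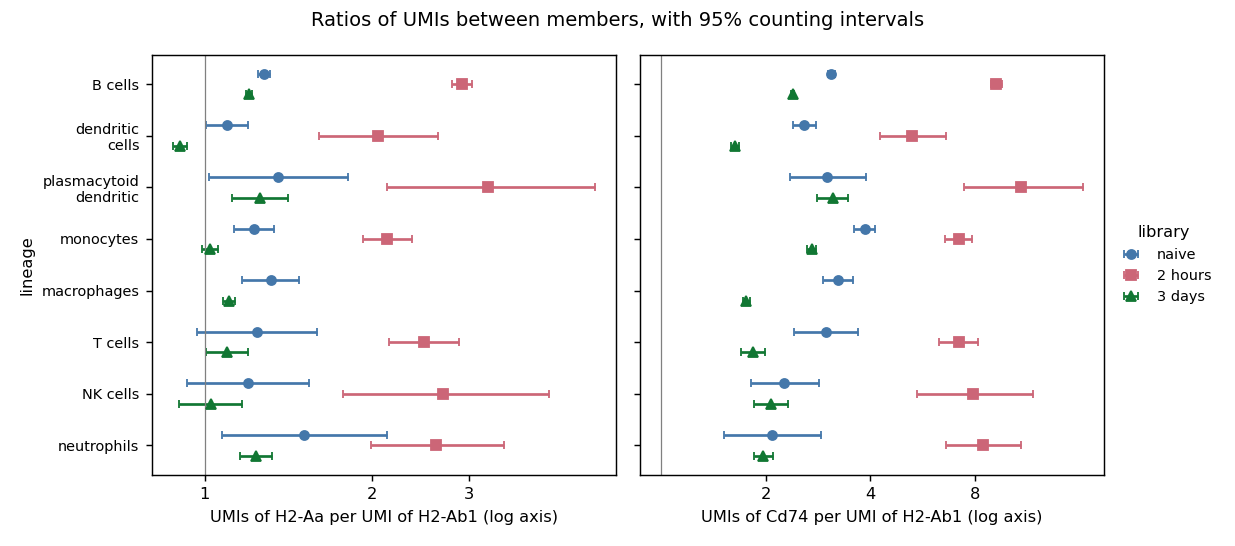
UMIs of H2-Aa (left) and Cd74 (right) per UMI of H2-Ab1 on log axes, for each lineage, with 1 point per library and 95% counting intervals. The 2-hour points lie to the right of the others in all 7 lineages that hold 2-hour cells, at 2.91 and 9.23 in B cells.

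Class II also varied between B cell clusters of the same library. In the naive library the largest cluster, of 387 cells, stood at 10800 CPM (95% interval 10678 to 10923), whereas the lambda light chain cluster led by Iglc1 stood at 4885 CPM (95% interval 4672 to 5105) and a cluster of 114 cells led by Bank1, of lower depth, at 4374 CPM (95% interval 4190.5 to 4564). At 3 days the clusters of 841 and 544 cells stood at 12618 CPM (95% interval 12512 to 12725) and 12270.5 CPM (95% interval 12141 to 12401), the lambda cluster at 9204 CPM (95% interval 9107 to 9303) and a cluster of 102 cells led by Gm26917 at 5067 CPM (95% interval 4876 to 5264). The lambda clusters were lower than the largest cluster in both libraries. At 2 hours the cluster led by heat-shock genes such as Hspa1b and the largest cluster, whose top genes were also Iglc1 and Iglc2, had overlapping intervals, at 9198 CPM (95% interval 8806 to 9602) and 9307 CPM (95% interval 9119.7 to 9497). A cluster of 447 cells led by Scgb1a1, Igha and Jchain was highest at 11296 CPM (95% interval 10966 to 11632); it held 5191 CPM of Scgb1a1. Without it the chain sum of 2 hours to naive was -0.000887 on the log2 scale.

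Class II in monocytes lay in a small part of the cells. Ordered by their own chain level, the richest 10% of monocytes held 91.01%, 92.3% and 80.8% of the lineage's chain UMIs in the naive, 2-hour and 3-day libraries, 16, 71 and 125 cells. In B cells the richest 10% held 16.5%, 18.1% and 13.9%. The remaining monocytes stood at 162, 178 and 241 CPM, beside 70.04, 342 and 328 CPM in T cells. The richest 10% was chosen by this level, so the contrast is a description.

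Markers of dendritic cells moved with class II in these cells. The 6 markers of cDC2, among them Flt3, Cd209a and Clec10a, summed to 516, 331 and 146 CPM in the richest 10% and to 59.7, 15.4 and 40.1 CPM in the rest. In the cells picked as dendritic they summed to 1432, 1441 and 1696 CPM. Markers of C1q macrophages were higher in the richest 10% in the naive library (8076 against 2793 CPM) and at 3 days (2974 against 2242 CPM), but not at 2 hours (1229.9 against 1617 CPM). Of the richest 10% at 3 days, 19 of 125 cells were called doublets and B cell markers came to 408 CPM, against 52.7 CPM in the rest. The part of these cells in the monocyte values below was not tested.

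**Figure D5:**
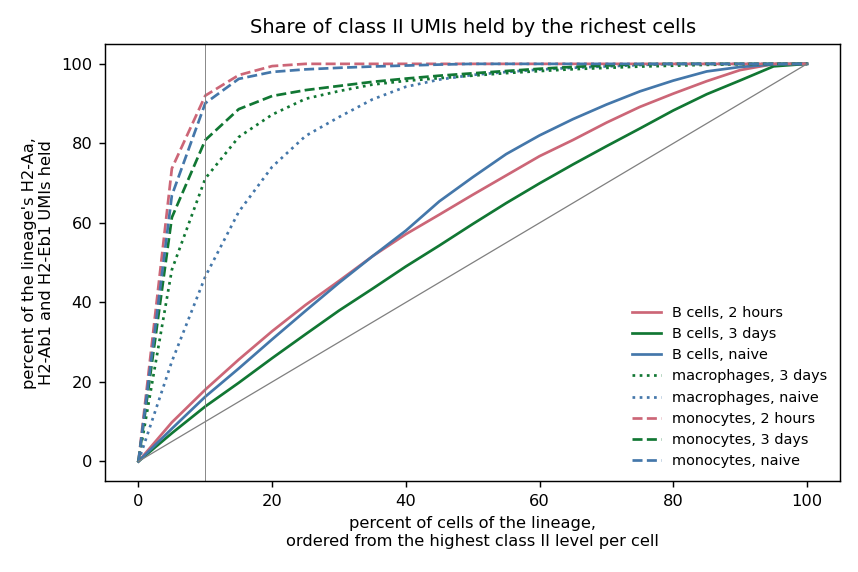
For B cells, monocytes and macrophages of each library, cells are ordered from the highest class II chain level down (x axis, percent of cells) and the curve gives the percent of chain UMIs they hold; the grey diagonal is an even spread and the vertical line marks the richest 10%. Monocyte curves reach 80.8% to 92.3% there and B cell curves 13.9% to 18.1%.

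Over all monocytes, the chain sum was lower at 3 days than at 2 hours, with a log2 ratio of -0.84 (95% interval -0.91 to -0.78), and lower than in the naive library, with -0.52 (95% interval -0.57 to -0.46). H2-Aa, Cd74 and H2-DMa were past 2-fold for 3 days to 2 hours, at -1.26 (95% interval -1.35 to -1.17) for H2-Aa, -1.61 (95% interval -1.66 to -1.56) for Cd74 and 1.17 (95% interval 0.84 to 1.52) for H2-DMa, so 3 of 10 members were, beside 9.34% of 9632 genes. This count rested on a 2-hour cluster described below, without which H2-Aa was at 0.04 and Cd74 at -0.76, neither past 2-fold, and H2-DMa at 2.28 and H2-Ab1 at 1.35, both higher at 3 days. For 3 days to naive 0 of 10 were, beside 9.35%, and for 2 hours to naive 0 of the 6 members with enough UMIs, beside 27.6%. The median over members for 3 days to 2 hours was -0.09, beside 0.21 over all genes. At 2 hours the value rested on a cluster of 332 cells led by Sftpc, the surfactant protein of alveolar epithelium, with Fn1, F13a1 and Vcan, which stood at 3275 CPM (95% interval 3126 to 3429) and held 2618 CPM of Sftpc. The other monocyte cluster, led by Ace, Fabp4 and Ear2, stood at 760.2 CPM (95% interval 690.2 to 835). Without the first, the ratio of 3 days to 2 hours was 0.56, the opposite direction. By markers the first was named classical and the other nonclassical, kinds described below. Values without the first, those above included, thus set the 2-hour nonclassical cluster against 3-day monocytes with a classical cluster of 734 cells. The part of cell type in this turn was not tested. The ratio of 3 days to naive also turned, to 0.38 where each cell took its lineage from its own markers and to 0.79 where the libraries were clustered together.

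Classical monocytes, which enter tissue from blood, and nonclassical monocytes, which patrol the vessel wall, showed opposite orders by value. Monocytes were split by which list of 6 markers, those of classical or of nonclassical monocytes, was found more completely in the cell. In classical monocytes the chain sum was 2088 CPM (95% interval 2006 to 2173) in the naive library, 2398 CPM (95% interval 2253 to 2551) at 2 hours and 1016 CPM (95% interval 998 to 1034) at 3 days, over 80, 214 and 700 cells. In nonclassical monocytes it was 715 CPM (95% interval 655 to 779), 597 CPM (95% interval 525 to 676) and 1276 CPM (95% interval 1243 to 1309), over 66, 274 and 526 cells. Classical cells were thus lowest at 3 days and nonclassical cells highest. The background was also higher at 3 days than in the naive library, at 328 against 70.04 CPM in T cells. It was 607 against 83.1 CPM in NK cells and 442 against 104 CPM in neutrophils. In nonclassical cells H2-DMb2 was 0 and 11.2 CPM and H2-Ob 8.27 and 19.4 CPM in the naive and 3-day libraries. The part of background in the nonclassical order was not tested. At 2 hours 214 cells were tied between the lists and stood at 3463 CPM (95% interval 3251 to 3685), against 6 and 24 tied cells in the naive and 3-day libraries. Cd74 followed in classical monocytes, at 2397, 4552 and 1063 CPM, but Ciita did not, at 15.4, 14.2 and 22.1 CPM with intervals that overlapped between the naive and 3-day libraries.

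Macrophages held more class II at 3 days than in the naive library, but their kinds differed too. Those of the naive library formed 1 cluster with Ear1, Plet1, Lpl and Chil3 among its top genes, markers of alveolar macrophages, which clear surfactant in the air space. Those of the 3-day library formed a cluster of 619 cells led by Saa3 and Arg1 and a cluster of 174 cells led by Fcrls and the C1q genes. Against naive macrophages, 5 of the 9 members with enough UMIs were past 2-fold at 3 days, all higher, beside 23.3% of 9334 genes: H2-Aa at 2.10 (95% interval 1.98 to 2.21), H2-Ab1 at 2.34 (95% interval 2.22 to 2.48), H2-Eb1 at 2.72 (95% interval 2.56 to 2.89), Cd74 at 1.47 (95% interval 1.39 to 1.54) and H2-Ob at 3.01 (95% interval 1.76 to 4.65), the last from 5 UMIs in the naive library. H2-Ob passed the filter on UMIs only through the 3-day library, where its 20.5 CPM lay below the 29.1 CPM of T cells. The median over members was 1.28, the value of H2-Ob itself on CPM plus 10, beside -0.13 over all genes. H2-DMa, at -0.50 (95% interval -0.66 to -0.34), and H2-DMb1, at -0.15 (95% interval -0.34 to 0.05), did not share that direction.

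Class II was highest in the 174 cells of the C1q cluster, with a chain sum of 8787 CPM (95% interval 8679 to 8896) against 1503 CPM (95% interval 1474 to 1533) in the Saa3 and Arg1 cluster and 742 CPM (95% interval 704 to 781) in naive macrophages. H2-DMa was 361, 58.5 and 214 CPM in the same order, so naive alveolar macrophages lay between both 3-day clusters. Ciita was 23.1, 6.02 and 7.12 CPM. Within the 3-day macrophages the richest 10% of cells held 71.4% of the chain UMIs, and in the naive library 50.4%. Whether these macrophages came from donor or recipient was not tested.

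Dendritic cells, though few, held 6077 CPM of H2-Aa, 5538 of H2-Ab1 and 4684 of H2-Eb1 in the naive library, from 13 cells with 178051 UMIs. At 3 days they held 8853, 9788 and 8389 CPM from 55 cells. For 3 days to naive the chain sum had a log2 ratio of 0.73 (95% interval 0.67 to 0.79), H2-Ab1 0.82 (95% interval 0.73 to 0.92), H2-Eb1 0.84 (95% interval 0.74 to 0.95), H2-Aa 0.54 (95% interval 0.45 to 0.64) and Cd74 0.16 (95% interval 0.10 to 0.22). Of 10 members, 2 were past 2-fold, H2-DMb2 at 1.92 (95% interval 0.91 to 3.16) and H2-Oa at 2.35 (95% interval 0.95 to 4.25), beside 28.0% of 3230 genes. Both passed the filter on UMIs through the 3-day library, with 162 and 109 UMIs there, against 8 UMIs of H2-DMb2 and 4 of H2-Oa in the naive one. For 3 days to 2 hours the chain sum had 0.03 (95% interval -0.11 to 0.18), where the 5 cells at 2 hours make it a value for those cells alone. The kinds of dendritic cell differed between libraries: markers of migratory dendritic cells summed to 3325, 5698 and 1125 CPM, and those of cDC1 to 668, 0 and 417 CPM, in the naive, 2-hour and 3-day libraries.

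Genes that work with class II were read by the same rule. Of the 7 genes for factors that bind class II promoters (Rfx5, Rfxap, Rfxank, Nfya, Nfyb, Nfyc and Creb1), 7 had enough UMIs in B cells for 3 days to naive. Of these 1, Nfyc, was past 2-fold, lower at 3 days at -2.03 (95% interval -2.26 to -1.81), beside 11.6% of all genes lower. For 2 hours to naive 3 of 6 were past 2-fold lower (Nfya, Nfyc and Creb1) and 0 higher, beside 21% of all genes lower and 5.33% higher. Nfyc was not particular to B cells. For 3 days to naive it was past 2-fold lower in monocytes and macrophages as well, beside 8.67% and 14.6% of all genes. Of the 6 genes for enzymes that cut antigen and invariant chain (Ctss, Ctsl, Ctsb, Lgmn, Ifi30 and Sppl2a), 2 were past 2-fold higher in B cells at 3 days than in the naive library, beside 1.64% of all genes, Ctsl at 2.54 (95% interval 1.98 to 3.16) and Ctsb at 1.69 (95% interval 1.45 to 1.93), but both were also at 25.02 and 99.2 CPM in T cells of that library, beside 42.99 and 140.1 CPM in B cells. Ctss, the protease that trims the invariant chain in B cells and dendritic cells, was 339 CPM in naive lungs, 272 at 2 hours and 412 at 3 days in B cells. Ifi30, the lysosomal thiol reductase GILT, was 831 CPM in naive and 1586 CPM in 3-day dendritic cells, against 172 and 230.1 CPM in B cells.

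In macrophages 3 of the 6 processing genes were past 2-fold higher at 3 days than in the naive library, Ctsl at 2.45 (95% interval 2.31 to 2.60), Ctsb at 2.03 (95% interval 1.96 to 2.10) and Lgmn at 2.44 (95% interval 2.28 to 2.60), while Ctss was 1782 and 1661 CPM. All 3 costimulatory genes tested there, Cd80, Cd86 and Cd40, were past 2-fold higher, beside 8.69% of all genes. March1, the ubiquitin ligase that removes class II from the surface, was 243 CPM in naive lungs, 102 at 2 hours and 100.3 at 3 days in B cells and 239 CPM in naive lungs, 77.5 at 2 hours and 80.4 at 3 days in monocytes, highest in the naive library in both. In macrophages March1 was likewise past 2-fold lower at 3 days than in the naive library. Cd83, which opposes March1, was 1112 CPM in naive lungs, 2423 at 2 hours and 989 at 3 days in dendritic cells and 473 CPM in naive lungs, 496 at 2 hours and 273 at 3 days in B cells. Cd86 was 742 CPM in naive lungs, 74.2 at 2 hours and 196 at 3 days in B cells. H2-Eb2, a beta chain gene next to H2-Eb1, was 95.3 CPM in naive lungs, 51.5 at 2 hours and 129 at 3 days in B cells and at most 4.07 CPM in monocytes and macrophages; H2-Ea was not analysed here. Ifng, whose product induces Ciita, was 42.2 CPM in naive lungs, 46.6 at 2 hours and 59.6 at 3 days in NK cells and 9.21, 5.74 and 5.20 CPM in T cells. Irf1, one of its downstream genes, was 68.5, 85.2 and 84.5 CPM in B cells, in the same order of libraries, and was past 2-fold in no comparison.

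Genes of the MHC class I pathway, which shows peptides from inside the cell to CD8+ T cells, were read beside class II. In B cells 1 of 7 were past 2-fold for 2 hours to naive (Nlrc5, lower), beside 26.4% of all genes, with a median of -0.73. For 3 days to naive it was again 1 (Nlrc5, lower), beside 13.2% of all genes, with a median of 0.13. H2-K1 was 1248 CPM in naive lungs, 680 at 2 hours and 1322 at 3 days, H2-D1 1301 CPM in naive lungs, 715 at 2 hours and 1423 at 3 days and B2m 1093 CPM in naive lungs, 884 at 2 hours and 1488 at 3 days, all lowest at 2 hours. In monocytes 6 of 7 were past 2-fold lower at 2 hours than in the naive library, H2-K1, B2m, Tap1, Tap2, Tapbp and Nlrc5, where 21.8% of all genes were. The median over the 7 was -1.01, beside -0.32 over all genes tested. Nlrc5, the class I counterpart of Ciita, was 133 CPM in naive lungs, 44.5 at 2 hours and 52.4 at 3 days in T cells and 45.1 CPM in naive lungs, 16.6 at 2 hours and 15.4 at 3 days in B cells.

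Across 20 sums of a lineage in a library with at least 20 cells, the 10 genes outside the group with the highest Pearson r to the chain sum, on log2 of CPM plus 10 and among 4511 genes reaching 100 CPM in at least 1 sum, were Pkib, Ly86, Gdi2, Plekho1, P2rx4, Erlin1, Erp29, Cd83, Syngr2 and Scpep1, at r from 0.827 to 0.908. Ly86 encodes MD-1, which pairs with RP105 on B cells and myeloid cells. Among the members not in the sum, r was 0.973 for Cd74, 0.916 for H2-DMa, 0.913 for H2-DMb1, 0.856 for Ciita, 0.767 for H2-Oa, 0.733 for H2-DMb2 and 0.674 for H2-Ob. The genes for H2-DO had a lower r than Pkib and Ly86, but those were picked as the highest of 4511 genes. The sums share 3 libraries and their free RNA, so r is a description.

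Both transplant libraries also held counts of 277 antibody features. The panel names human class II antigens and CD74, and 0 of its names refer to mouse I-A or I-E, so surface class II could not be read. The CD74 antibody had 0 UMIs over 10283 kept cells at 2 hours, which allows up to 0.000359 UMIs per cell at the upper 95% bound, and 3 over 8324 at 3 days. HLA-DR had 6 and 11 UMIs and HLA_DR.DP.DQ 0 and 0. The isotype controls had medians of 232 and 759 UMIs over the same cells, so none of these antibodies was above them.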

How the data were processed

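The 3 single-cell libraries, 1 per condition, each came from pooled mice. The deposited values were UMI counts per gene and cell, made by the authors with Cell Ranger (version 7.1.0 per the header of the naive file; version 6.0.0 per the headers of both transplant files); the submitters' processing notes name Cell Ranger 6, Seurat 4 and mm10. The sources used here do not say whether introns were counted. Antibody counts were used for 3 antibodies and isotype controls.

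The filters of the study were applied: over 200 and below 6000 genes, below 25000 UMIs and below 10% mitochondrial UMIs. Each library was clustered on its own in Seurat 5.3.0 (SCTransform 0.4.2, 30 principal components, resolution 0.8) with class II genes left out of the variable features. A cluster took the lineage whose markers stood out, if the median log2 ratio of those markers and at least 3 single ones exceeded 1 against the rest of the library, and stayed unnamed if genes of another lineage led it. Clustering libraries singly and picking dendritic cells one by one (at least 3 markers of the list found most completely) were chosen after the clusters' markers had been seen. Cells of B clusters in which Jchain took 1% of UMIs or more were called plasma cells and left out. Scrublet (scanpy 1.11.5) called 1.36% to 4.02% of kept cells doublets, whose removal was an alternative.

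UMIs were summed per lineage and library and expressed per 1000000 UMIs of that sum (CPM). Poisson, conditional log2-ratio and Clopper-Pearson intervals (95%) cover counting error only, and the log2-ratio intervals were tested on simulated data. No p-value was computed, since each condition had 1 library. The genes and lists were chosen with earlier results of these data known. Genes named were the members, the listed partner genes and the 10 genes most like the chain sum. Alternatives were no cell filter, log-normalization, doublet removal, thinning, another denominator, subtraction of the T cell level and lineage called cell by cell. Clustering the libraries together and leaving out clusters led by Scgb1a1 or Sftpc were chosen after seeing the data. One listed partner gene is not reported here.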

Additional observations from a re-analysis of the deposited data

Results flagged for a closer look

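The class II chain sum moved in opposite directions in B cells and monocytes, and the difference between the cell types was not tested, since each condition had 1 library. For 3 days to naive its log2 ratio was 0.25 in B cells and -0.52 in monocytes. For 3 days to 2 hours it was 0.18 in B cells and -0.84 in monocytes. The monocyte value of 3 days to naive turned to 0.38 with lineages called cell by cell, and that of 3 days to 2 hours to 0.56 without the cluster led by Sftpc. That cluster was named classical, so leaving it out kept the nonclassical cluster alone at 2 hours.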

How the results depend on the processing

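Log2 ratios are of UMIs per 1000000. For the class II chain sum, B cells and 2 hours to naive, the ratio of 0.0726 moved to 0.12 with log-normalization before clustering, 0.14 with called doublets removed, 0.22 with cells thinned to 500 UMIs, 0.15 outside ribosomal, mitochondrial and immunoglobulin genes, 0.0321 with the T cell level subtracted, 0.16 with lineages called cell by cell, 0.20 with the libraries clustered together, and turned to -0.000887 without the 2-hour clusters led by Scgb1a1 or Sftpc. For the class II chain sum, B cells and 3 days to 2 hours, the ratio of 0.18 moved to 0.34 without the cell filter, 0.14 with log-normalization before clustering, 0.12 with called doublets removed, 0.11 with cells thinned to 500 UMIs, 0.24 outside ribosomal, mitochondrial and immunoglobulin genes, 0.0928 with lineages called cell by cell, 0.0554 with the libraries clustered together, 0.25 without the 2-hour clusters led by Scgb1a1 or Sftpc. For the class II chain sum, dendritic cells and 3 days to 2 hours, the ratio of 0.0344 moved to 0.47 with lineages called cell by cell, 0.29 without the 2-hour clusters led by Scgb1a1 or Sftpc. For the class II chain sum, monocytes and 3 days to 2 hours, the ratio of -0.84 moved to -1.01 with log-normalization before clustering, -0.93 with called doublets removed, -0.63 with cells thinned to 500 UMIs, -0.74 outside ribosomal, mitochondrial and immunoglobulin genes, -1.07 with the T cell level subtracted, -0.0749 with lineages called cell by cell, -2.29 with the libraries clustered together, and turned to 0.56 without the 2-hour clusters led by Scgb1a1 or Sftpc. Without the 2-hour clusters led by Scgb1a1 or Sftpc, the direction turned for class II chain sum in monocytes 2 hours to naive (-1.07), H2-Aa in monocytes 2 hours to naive (-0.59), H2-Aa in monocytes 3 days to 2 hours (0.0428), H2-Ab1 in monocytes 3 days to 2 hours (1.35), H2-Eb1 in monocytes 3 days to 2 hours (0.58), Cd74 in monocytes 2 hours to naive (-0.037). With lineages called cell by cell, the direction turned for class II chain sum in monocytes 3 days to naive (0.38), H2-DMb2 in B cells 2 hours to naive (0.0325), H2-Aa in monocytes 3 days to naive (0.22), H2-Ab1 in monocytes 3 days to naive (0.54), H2-Ab1 in monocytes 3 days to 2 hours (0.57), H2-Eb1 in monocytes 3 days to naive (0.42), H2-Eb1 in monocytes 3 days to 2 hours (0.0672). With the libraries clustered together, the direction turned for class II chain sum in monocytes 3 days to naive (0.79), H2-DMb2 in B cells 2 hours to naive (0.00824), H2-Aa in monocytes 3 days to naive (0.65), H2-Ab1 in monocytes 3 days to naive (0.94), H2-Eb1 in monocytes 3 days to naive (0.80), H2-DMa in monocytes 2 hours to naive (0.52), Cd74 in monocytes 3 days to naive (0.0672), Ciita in monocytes 3 days to 2 hours (-1.18). With cells thinned to 500 UMIs, the direction turned for H2-DMb1 in B cells 3 days to naive (0.46), Cd74 in B cells 3 days to naive (0.0174), Ciita in monocytes 3 days to naive (-1.82). Without the cell filter, the direction turned for Cd74 in B cells 3 days to naive (0.0963). Outside ribosomal, mitochondrial and immunoglobulin genes, the direction turned for Cd74 in B cells 3 days to naive (0.0871). The H2-Aa to H2-Ab1 ratio of B cells ran from 2.87 to 2.94 at 2 hours over these settings and from 1.28 to 1.36 in the naive library. In dendritic cells at 2 hours it ran from 1.26 to 2.26, and in the naive library from 0.878 to 1.12. In monocytes, leaving out the cluster led by Sftpc kept the nonclassical cluster alone at 2 hours. Macrophages had no 2-hour cells, so their ratio of 3 days to 2 hours was not run. No paired analysis was possible because each group had 1 library. Apart from the fewer cells that a setting leaves, the cause of these changes was not tested. Depth limits the 2-hour values of Ciita and of the few dendritic cells.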
